A study of Mus musculus with 6 samples.

Results

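Integrins and laminins were examined in cells sorted from the myenteric plexus of the mouse colon, a network of ganglia that drives gut movement. The members were the genes whose only symbol on the array begins with Itga or Itgb or names a laminin alpha, beta or gamma chain, and where a gene had several probe sets the brightest on average was used. This gave 39 of 18193 genes. They fell into 4 leukocyte integrins (Itgal, Itgam, Itgax and Itgb2), 17 matrix-binding integrins, 10 laminin chains, 4 further integrin genes of leukocytes and platelets, and 4 genes that share the symbol but are not integrin chains (Itgb1bp1, Itgb1bp2, Itgb3bp and Itgbl1). Itgad and Itga11 were not analysed here.

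All mice carried Mapttm1(EGFP)Klt/J, an EGFP insertion at the locus of the neuronal microtubule protein tau, so that the promoter of that locus drives the label. In all of them a fluorescent cholera toxin subunit B had been injected into the celiac ganglion 3 to 4 days before death. The labels give 3 libraries of Mapt-EGFP+ colonic neurons and 3 of Mapt-EGFP- myenteric cells, each made from pooled cells of 2, 4 or 6 mice, and do not state the age. About 50 ng of total RNA per library was hybridised to a 1-colour oligonucleotide array.

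Integrins are cell surface receptors made of an alpha and a beta chain. Most bind proteins of the extracellular matrix, while those built on Itgb2 are made by leukocytes and bind counter-receptors on other cells. Laminins are trimers of an alpha, a beta and a gamma chain and form the sheet of the basement membrane that surrounds smooth muscle, vessels, epithelium and the ganglia of the gut.

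The authors' log2 values are listed by replicate number (1, 2, 3), and differences are EGFP-positive minus EGFP-negative. A log2 value under 3 was taken as near background, since probe sets for TrpnX, a control transcript not added to samples, ranged from 1.00 to 1.48. By that mark 18 members were above background in all 6 libraries, 9 were near it in all 6, and 12 were mixed. Mapt itself went against the label in the libraries labelled EGFP-positive replicates 1 and 2 (1.43 and 1.32, against 5.55 in replicate 3). The neuron markers averaged 3.08 and 3.09 there against 6.47 in replicate 3. In the EGFP-negative libraries Mapt read 1.44, 1.64 and 1.38, and the neuron markers averaged 3.21, 3.47 and 3.70. EGFP-positive replicates 1 and 2 thus had lower neuron marker means than any EGFP-negative library, so every direction refers to the labels. Between 6182 and 7621 probe sets per library exceeded a log2 value of 6, with the fewest in EGFP-negative replicate 1. Same-numbered libraries deviated together from their group means (correlations across genes of 0.36, 0.32 and 0.42 for numbers 1, 2 and 3), so within-pair differences are given where they show what the group means do not.

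The leukocyte integrins were lower in every library labelled EGFP-positive than in any labelled EGFP-negative, whereas 15 of 17 matrix-binding integrins and all 10 measured laminins overlapped between the groups, as did 90.9% of all genes. None of the 39 members passed the limma test at a threshold of 0.05 (adjusted p = 0.951 or higher), and neither did any of the 18193 genes, a share of 0%. Unadjusted p was under 0.05 for 8 members and for 893 genes, which is 4.91% of all genes. The groups did not overlap for 6 members that were lower and 2 that were higher in the EGFP-positive libraries, against 6.04% and 3.07% of all genes. The lower ones were Itgal, Itgam, Itgax, Itgb2, Itgae and Itgb7, and the higher ones were Itgav and Itgb4. The median log2 difference was -0.09 over the members and -0.02 over all genes.

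These counts depended on scaling and on single libraries. When arrays were centred on ribosomal protein genes, which moved the median difference of all genes to 0.32, 4 members were lower and 8 higher without overlap, against 1.26% and 28% of all genes. Without EGFP-negative replicate 1 the lower count was 13, against 15.1% of all genes. The higher count was 4 without EGFP-positive replicate 1 (7.15% of all genes), 8 without EGFP-positive replicate 3 (6.99%) and 8 without EGFP-negative replicate 3 (7.37%). Leaving out a library cannot make separate groups overlap, so these counts could only stay or rise. Without both EGFP-positive libraries in which Mapt was near background, 14 members were lower and 6 higher, against 29.2% and 23.2% of all genes, since a single library was then compared with 3.

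**Figure D1:**
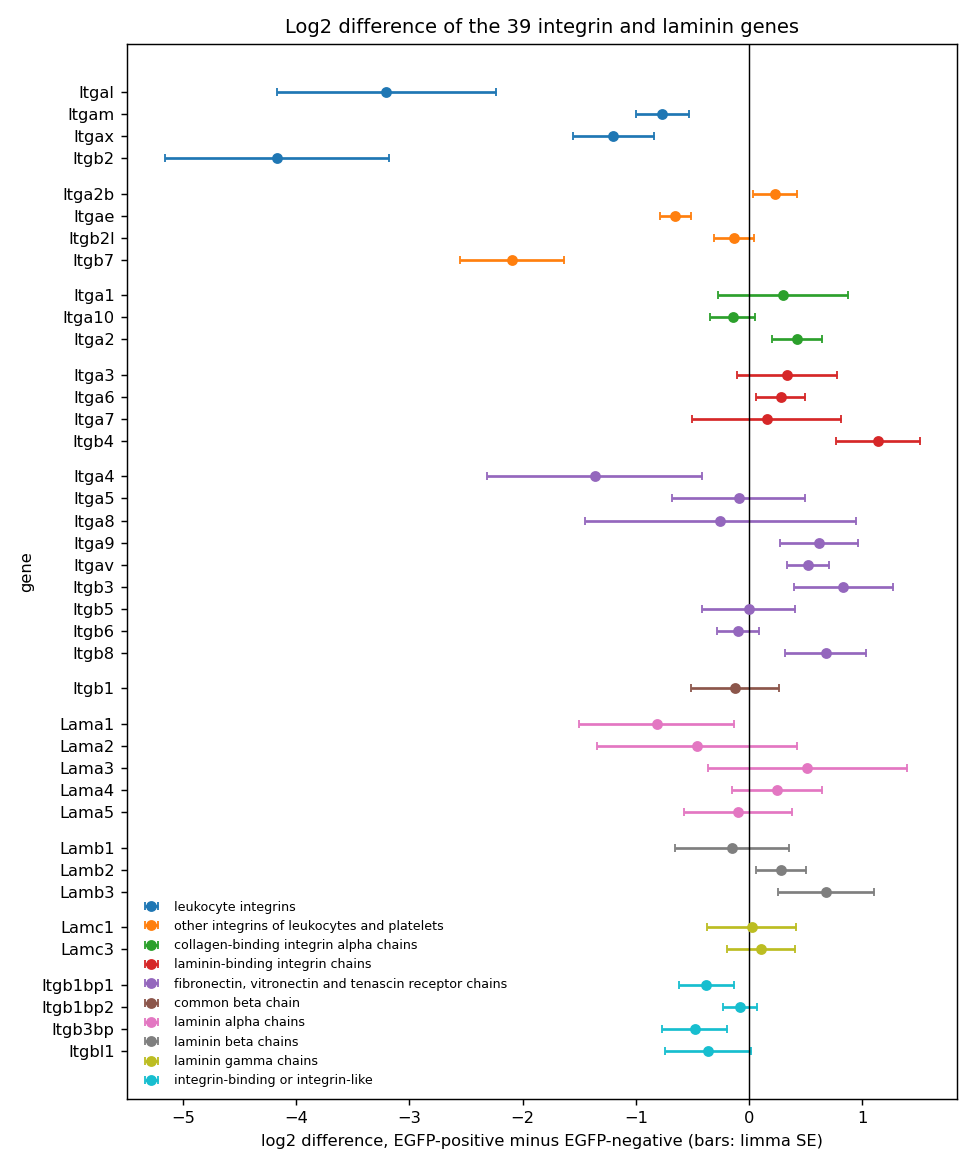
Log2 difference, EGFP-positive minus EGFP-negative, of each of the 39 genes (horizontal axis), grouped by role, with the standard error of the limma fit as bars. Itgb2, at -4.17, and Itgal, at -3.20, lie far to the left, while the matrix-binding integrins and laminins scatter around 0.

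Itgb2, the beta chain shared by the leukocyte integrins, read 4.51, 2.13 and 1.87 in the EGFP-positive libraries and 5.53, 8.30 and 7.18 in the EGFP-negative libraries. The groups did not overlap, and the libraries of replicate 1 lay closest together, 1.02 apart on the log2 scale, with the EGFP-positive library lower. A log2 difference of -4.17 (SE 0.99) resulted, with a limma adjusted p of 0.951. Itgal, the alpha chain of the lymphocyte function antigen that leukocytes use to hold on to other cells, read 1.90, 0.97 and 0.88 against 2.29, 5.35 and 5.72. Above background it was seen only in EGFP-negative replicates 2 and 3, and its log2 difference was -3.20 (SE 0.97, limma adjusted p = 0.986). With values under 3 set to 3 that difference was -1.69, and over all its probe sets it was -1.58. A second Itgal probe set stayed near background in all 6 libraries.

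The alpha chains of myeloid integrins were dim on this array. Itgam, found on macrophages and neutrophils, read 1.42, 1.24 and 0.90 against 1.80, 1.70 and 2.36. All 6 values were near background, so the log2 difference of -0.77 (SE 0.24) does not give the size of a change. Itgax, found on dendritic cells and some macrophages, read 1.42, 1.26 and 1.51 against 1.81, 2.82 and 3.15, and only EGFP-negative replicate 3 exceeded 3. Its log2 difference was -1.20 (SE 0.36), and neither gene passed (limma adjusted p = 0.986 for each). With values under 3 set to 3 the Itgax difference was -0.05, so -1.20 does not give the size of a change either. With values under 3 set to 3, only Itgb2 and Itgb7 of the 6 lower members still had groups that did not overlap. For Itgb7 this hung on the chosen level, as its lowest EGFP-negative value was 3.04, against 5.53 for Itgb2. In that setting 3.04% of all genes were lower without overlap.

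Itgb7 pairs with Itga4 on gut-homing lymphocytes and with Itgae on lymphocytes within the epithelium. It read 2.44, 1.21 and 1.47 against 3.04, 4.13 and 4.23, a log2 difference of -2.09 (SE 0.46, limma adjusted p = 0.951), and all 3 EGFP-negative libraries were above background while all 3 EGFP-positive libraries were near it. With values under 3 set to 3 the Itgb7 difference was -0.80. Itgae read 1.75, 1.85 and 1.77 against 2.42, 2.25 and 2.65, all near background, so its log2 difference of -0.65 (SE 0.14) gives no size of change; it was -0.21 without probe sets that may bind several transcripts. Itga4, which neural crest cells make as well as leukocytes, read 3.53, 3.40 and 5.79 against 4.04, 6.69 and 6.07. Its groups overlapped through EGFP-positive replicate 3, the library in which Mapt was 5.55, and its log2 difference was -1.36 (SE 0.95, limma adjusted p = 1.00). That difference was -2.14 without EGFP-positive replicate 3 or without EGFP-negative replicate 1, and -0.82 without EGFP-negative replicate 2. Among the remaining genes of this kind, the platelet chain Itga2b ranged from 1.91 to 2.55 and Itgb2l from 1.53 to 2.11, so both stayed near background.

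**Figure D2:**
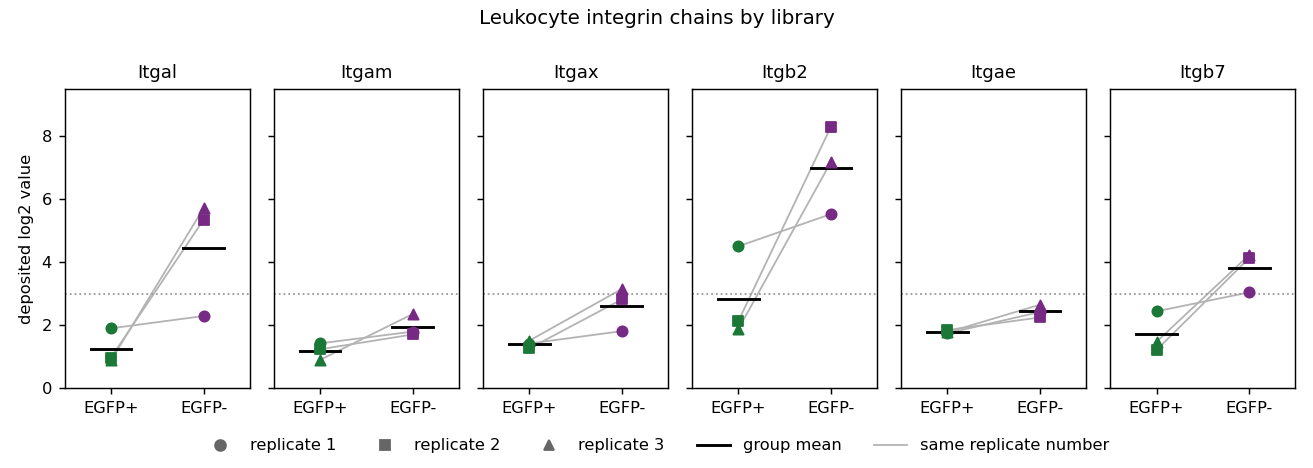
Deposited log2 values (vertical axis) of 6 integrin chains of leukocytes in the 3 EGFP-positive (green) and 3 EGFP-negative (purple) libraries. Black bars are group means, grey lines join libraries of the same replicate number, and the dotted line marks the background level of 3; in Itgal, Itgb2 and Itgb7 the replicate 1 pair is the closest.

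Promoter sequence was available for 26 of the 39 members, and 3 of the 6 lower members were among them. The 250 bases before the annotated start are shown for these 3, with Itgav as a matrix-binding chain that was higher, because the groups did not overlap for these genes and differed in opposite directions. They are from RefSeq on GRCm38.p6, 5′ to 3′ on the strand of the gene. Capitals mark GAGGAA or its reverse complement TTCCTC, letters that the myeloid and lymphoid factor PU.1 is known to bind, searched on both strands. Shorter or other forms of its site, such as GGAA alone, were not searched. The windows lie at chr7:128062390-128062639, plus strand for Itgam, chr7:128129300-128129549, plus strand for Itgax, chr15:102231936-102232185, minus strand for Itgb7 and chr2:83724147-83724396, plus strand for Itgav.
Itgam: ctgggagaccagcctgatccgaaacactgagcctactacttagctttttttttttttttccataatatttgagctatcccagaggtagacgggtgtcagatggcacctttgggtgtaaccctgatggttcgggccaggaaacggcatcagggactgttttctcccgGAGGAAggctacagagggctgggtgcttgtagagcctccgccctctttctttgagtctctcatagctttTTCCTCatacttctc
Itgax: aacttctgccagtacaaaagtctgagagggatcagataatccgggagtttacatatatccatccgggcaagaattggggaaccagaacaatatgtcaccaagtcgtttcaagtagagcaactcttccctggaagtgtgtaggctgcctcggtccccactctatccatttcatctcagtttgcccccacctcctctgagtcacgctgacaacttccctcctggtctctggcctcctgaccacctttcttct
Itgb7: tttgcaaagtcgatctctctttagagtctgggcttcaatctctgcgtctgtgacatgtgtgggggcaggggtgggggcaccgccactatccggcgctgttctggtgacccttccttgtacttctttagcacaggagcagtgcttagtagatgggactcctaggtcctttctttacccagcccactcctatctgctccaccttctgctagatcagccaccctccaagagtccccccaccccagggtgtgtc
Itgav: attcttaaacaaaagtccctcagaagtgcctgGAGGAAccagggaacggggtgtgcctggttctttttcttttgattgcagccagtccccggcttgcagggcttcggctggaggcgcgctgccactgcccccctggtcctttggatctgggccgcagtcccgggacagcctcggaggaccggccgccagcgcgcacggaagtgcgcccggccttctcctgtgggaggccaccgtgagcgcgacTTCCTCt
Itgam held 2 such matches, starting 84 and 15 bases before the start, and Itgav also held 2, starting 218 and 7 bases before it. Itgax and Itgb7 held 0 in this window. The letters occurred in 23.3% of 32851 promoter windows of the same length and in 5 of the 15 windows of matrix-binding integrins. CpG dinucleotides numbered 6, 5 and 5 in Itgam, Itgax and Itgb7 and 18 in Itgav, against a median of 6 over all windows and 11 over those of matrix-binding integrins, whose range was 2 to 22. On the RefSeq map Itgam and Itgax are direct neighbours.

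The EGFP-positive libraries also had lower means for each of 3 immune cell marker lists. The 4 leukocyte integrins averaged 2.31, 1.40 and 1.29 against 2.86, 4.55 and 4.60, a mean log2 difference of -2.34. Much of that mean came from values near background. With values under 3 set to 3 it was -1.31, and of the 4 only Itgb2 then had groups that did not overlap. The 15 macrophage markers averaged 6.13, 3.35 and 2.33 against 7.80, 8.24 and 6.75, and 9 of the 15 were lower without overlap, where 6.04% of all genes were. The 11 measured lymphocyte and mast cell markers averaged 2.16, 1.58 and 1.25 against 2.46, 4.40 and 4.75, with 6 lower without overlap. The 5 measured neutrophil markers averaged 3.35, 1.95 and 4.00 against 4.70, 5.02 and 6.49, with 3 lower without overlap.

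Among the EGFP-negative libraries the order differed between these lists. Replicate 1 had the lowest leukocyte integrin mean and the lowest lymphocyte mean, but its macrophage mean was above that of replicate 3. Ptprc, the leukocyte common antigen, was counted in the macrophage list although leukocytes in general carry it. It read 4.17, 1.45 and 2.21 against 5.34, 8.53 and 8.88, and like Itgal was lowest among the EGFP-negative libraries in replicate 1. Cd68, a lysosomal marker of macrophages, read 4.71, 1.84 and 1.21 against 6.90, 7.25 and 5.91. Among the EGFP-negative libraries it was lowest in replicate 3, as was every gene of the macrophage list except Ptprc. Whether fewer leukocytes or less RNA per leukocyte underlay the lower values cannot be told apart in sorted bulk samples, and the part of these markers in the integrin values was not tested.

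**Figure D3:**
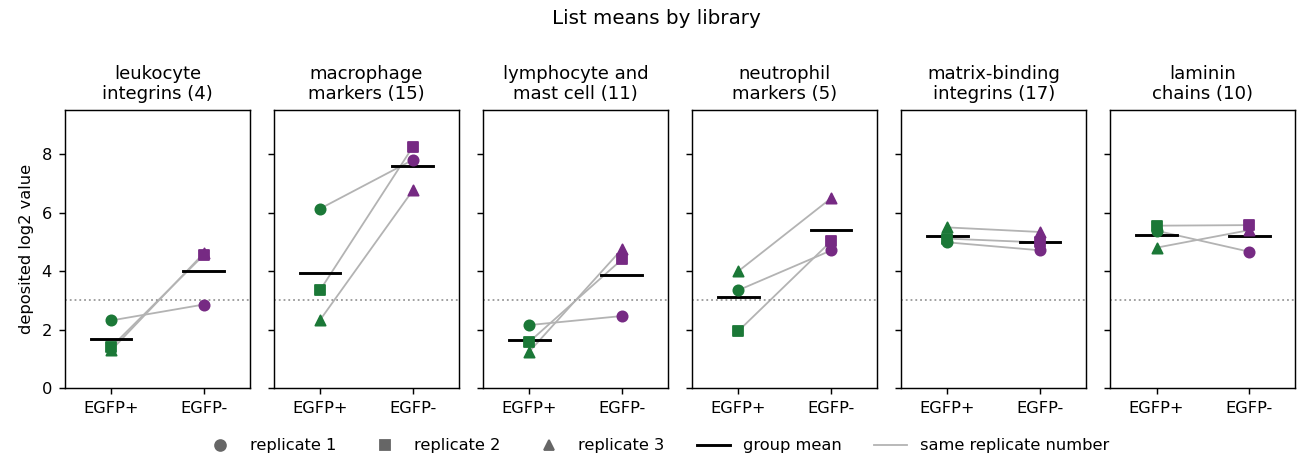
Mean log2 value (vertical axis) of 6 gene lists in each library, with symbols as replicate numbers, grey lines joining the same number, black bars for group means and the number of measured genes in parentheses. The leukocyte integrins and the 3 immune marker lists are lower in all EGFP-positive libraries, while matrix-binding integrins and laminins overlap.

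Matrix-binding integrins overlapped between the groups in 15 of 17 genes, close to the share of 90.9% over all genes. Their mean was 4.98, 5.11 and 5.49 against 4.71, 4.98 and 5.34, with a mean log2 difference of 0.19 and a median of 0.28, against a mean of -2.34 for the leukocyte integrins. With values under 3 set to 3 the mean differences were 0.17 for matrix-binding and -1.31 for leukocyte integrins. Of the 17, 6 were higher in all 3 same-numbered pairs and 2 lower, where 11.3% and 16.2% of all genes were. The mean difference stayed above 0 under every alternative run, from 0.04 without EGFP-positive replicate 3 or without EGFP-negative replicate 1 to 0.52 with arrays centred on ribosomal protein genes.

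Among laminin-binding chains, Itgb4 was higher in every library labelled EGFP-positive. Itgb4 pairs with Itga6 and anchors epithelial and Schwann cells to laminin. It read 6.81, 5.92 and 6.24 against 5.86, 4.82 and 4.88, with a log2 difference of 1.14 (SE 0.37, limma adjusted p = 0.986). The lowest EGFP-positive value lay only just above the highest EGFP-negative one, while the 3 same-numbered pairs differed by 0.95, 1.10 and 1.36. In the limma fit that used replicate numbers as a block, the SE was 0.14 and the adjusted p 0.661, and after a second quantile normalization the groups overlapped.

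Itga6, the alpha chain of that receptor, read 7.996, 8.16 and 7.74 against 7.91, 7.85 and 7.29, with a log2 difference of 0.28 (SE 0.22). The groups overlapped, and all 3 pairs were higher in the EGFP-positive library. The difference was 0.08 without EGFP-negative replicate 3 and 0.18 without EGFP-positive replicate 2. A second Itga6 probe set read 7.86, 7.13 and 6.90 against 6.85, 6.47 and 6.17 and did not overlap. Itga3, which forms a laminin receptor of epithelium and mesothelium, read 6.55, 5.84 and 5.33 against 6.22, 5.56 and 4.96. Its pairs differed by 0.33, 0.29 and 0.38, less than the span from replicate 1 to replicate 3 within either group. Itga7, the laminin receptor of muscle, read 2.17, 2.14 and 3.63 against 1.91, 1.90 and 3.66 and was above background only in the libraries of replicate 3.

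Marker lists of the cell types known to make these chains were read beside them. The 8 measured glial markers averaged 6.62, 6.28 and 8.39 against 4.93, 6.07 and 5.65, with 4 higher without overlap, where 3.07% of all genes were. Epithelial markers averaged 8.75, 8.28 and 5.61 against 7.78, 7.94 and 6.33, and mesothelial markers averaged 9.63, 9.07 and 7.27 against 9.32, 8.67 and 7.56. Itga3 had the same order of libraries by number as the mesothelial list, highest in replicate 1 and lowest in replicate 3 of both groups. Itgb4 was highest in replicate 1 of both groups, as was the mesothelial list, but Itgb4 was lowest in replicate 2 and that list in replicate 3. The epithelial list was highest in EGFP-positive replicate 1 and EGFP-negative replicate 2. The glial list was highest in EGFP-positive replicate 3 and EGFP-negative replicate 2. The part of these cell types in the integrin values was not tested.

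Among receptors for fibronectin, vitronectin and tenascin, Itgav was higher without overlap. Itgav is the alpha chain that Itgb3, Itgb5, Itgb6 and Itgb8 share. It read 9.99, 10.11 and 10.51 against 9.75, 9.49 and 9.82, with a log2 difference of 0.52 (SE 0.19, limma adjusted p = 0.986). The other Itgav probe sets were near background, apart from 1 value of 3.80, and add nothing to this reading. Itgb8, whose pairing with Itgav activates latent TGF-beta, read 4.95, 5.77 and 6.35 against 5.07, 5.02 and 4.95, a log2 difference of 0.68 (SE 0.36). Its EGFP-negative values were nearly equal, and EGFP-positive replicate 1 lay level with them. The difference was 0.35 without EGFP-positive replicate 3 and 1.05 without EGFP-positive replicate 1.

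Itgb3, the vitronectin receptor chain of platelets and endothelium, read 5.66, 4.60 and 4.40 against 3.42, 4.34 and 4.42, and its log2 difference of 0.83 (SE 0.44) came mostly from the pair of replicate 1, being 0.45 without the EGFP-positive and 0.51 without the EGFP-negative library of that pair. Itgb5 read 7.83, 7.42 and 7.59 against 6.71, 8.02 and 8.13, so that EGFP-negative replicate 1 was the lowest library. Itgb6, an epithelial chain, stayed between 0.97 and 1.53. Itga5, the classical fibronectin receptor chain, read 3.32, 3.61 and 4.05 against 3.21, 2.99 and 5.06, and Itga9, a tenascin receptor chain, read 4.00, 4.18 and 3.07 against 2.95, 2.96 and 3.51. Both overlapped. The common chain Itgb1, which most matrix-binding alpha chains need, read 7.81, 8.69 and 8.83 against 8.29, 8.22 and 9.18 and also overlapped.

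Itga8 and Itga1 differed more between replicate numbers than between labels. Itga8, the nephronectin receptor chain of smooth muscle and fibroblasts, read 3.29, 5.52 and 6.60 against 3.40, 6.04 and 6.73. It was low in both libraries of replicate 1, and its pairs differed by -0.11, -0.52 and -0.12. Itga1, a collagen and laminin receptor of smooth muscle, read 6.64, 6.70 and 8.10 against 6.54, 6.24 and 7.76 and was highest in both libraries of replicate 3. Smooth muscle markers averaged 8.57, 8.21 and 10.18 against 9.03, 8.48 and 10.45, also highest in both libraries of replicate 3, and all 8 were above background in every library. The other collagen-binding chains, Itga2 and Itga10, stayed near background, from 1.43 to 2.42 and from 1.21 to 1.91.

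**Figure D4:**
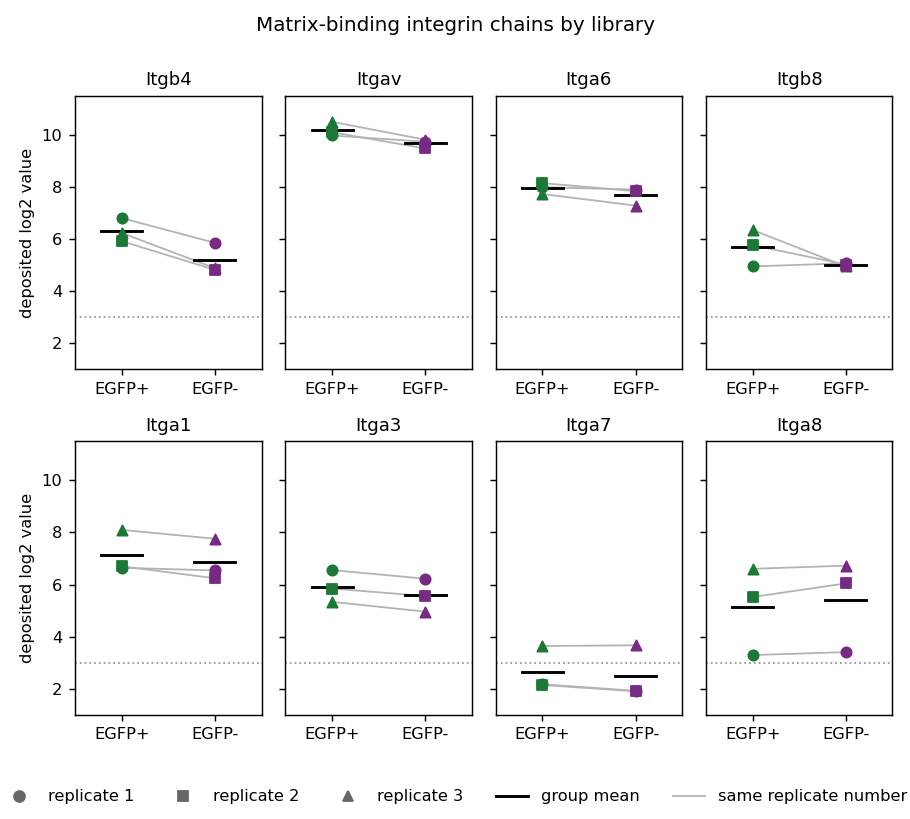
Deposited log2 values (vertical axis) of 8 matrix-binding integrin chains in the EGFP-positive (green) and EGFP-negative (purple) libraries, with grey lines joining the same replicate number, black bars for group means and a dotted line at 3. Itgb4 and Itgav are higher in all EGFP-positive libraries, while Itga1, Itga3, Itga7 and Itga8 differ mainly by replicate number.

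All 10 laminin chains overlapped between the groups, which is little more than the 90.9% of all genes that did. Their mean was 5.38, 5.55 and 4.80 against 4.66, 5.57 and 5.40, a mean log2 difference of 0.03 and a median of 0.06. The mean difference was 0.37 with arrays centred on ribosomal protein genes, where the median over all genes was 0.32. It was -0.00 with arrays centred on their median and -0.03 with array weights, and without 1 library it ranged from -0.24 to 0.25. With 1 library left out, the lowest value was without EGFP-negative replicate 1 and the highest without EGFP-positive replicate 3.

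Lama2, Lama4, Lamb1 and Lamc1 encode chains of the laminins around muscle, vessels and Schwann cells, and all 4 were lowest in EGFP-negative replicate 1. Lama2 read 6.15, 7.44 and 6.25 against 5.21, 8.36 and 7.65. Lama4 read 8.44, 8.98 and 8.43 against 7.54, 8.91 and 8.65. Lamb1 read 7.71, 8.46 and 7.71 against 7.05, 8.69 and 8.60, and Lamc1 read 7.24, 7.60 and 7.22 against 6.48, 7.92 and 7.60. In all 4 the EGFP-positive library was higher in pair 1, and it was lower in pair 3. Over all genes, 4877 of 18193 were lowest in that library, which also had the fewest probe sets above 6. The fibroblast markers averaged 11.03, 11.39 and 10.75 against 10.92, 11.59 and 11.53, and among the EGFP-negative libraries their mean was also lowest in replicate 1. Of the 7 markers, Col1a1, Col3a1 and Dcn were not lowest there.

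Lama5 and Lamb2, chains of mature basement membranes, did not share that pattern in full. Lama5 read 5.76, 5.33 and 5.54 against 6.69, 5.30 and 4.93, highest in EGFP-negative replicate 1. A second Lama5 probe set read 4.39, 4.43 and 4.80 against 4.52, 4.37 and 4.01, highest in EGFP-positive replicate 3. Lamb2, which is also known from synaptic basement membranes, read 5.93, 6.35 and 6.21 against 5.64, 5.71 and 6.28, within a narrow range in all 6 libraries.

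Lama3 and Lamb3 belong to the laminin beneath epithelium. Lama3 read 4.27, 5.07 and 1.92 against 2.81, 4.07 and 2.84, and Lamb3 read 3.27, 2.10 and 1.68 against 1.78, 1.75 and 1.48. Among the EGFP-positive libraries both were lowest in replicate 3, where the epithelial markers were also lowest. Lama1, an early embryonic chain, exceeded 3 only in EGFP-negative replicates 2 and 3, at 3.01 and 4.32. Lamc3 stayed between 1.37 and 2.47.

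**Figure D5:**
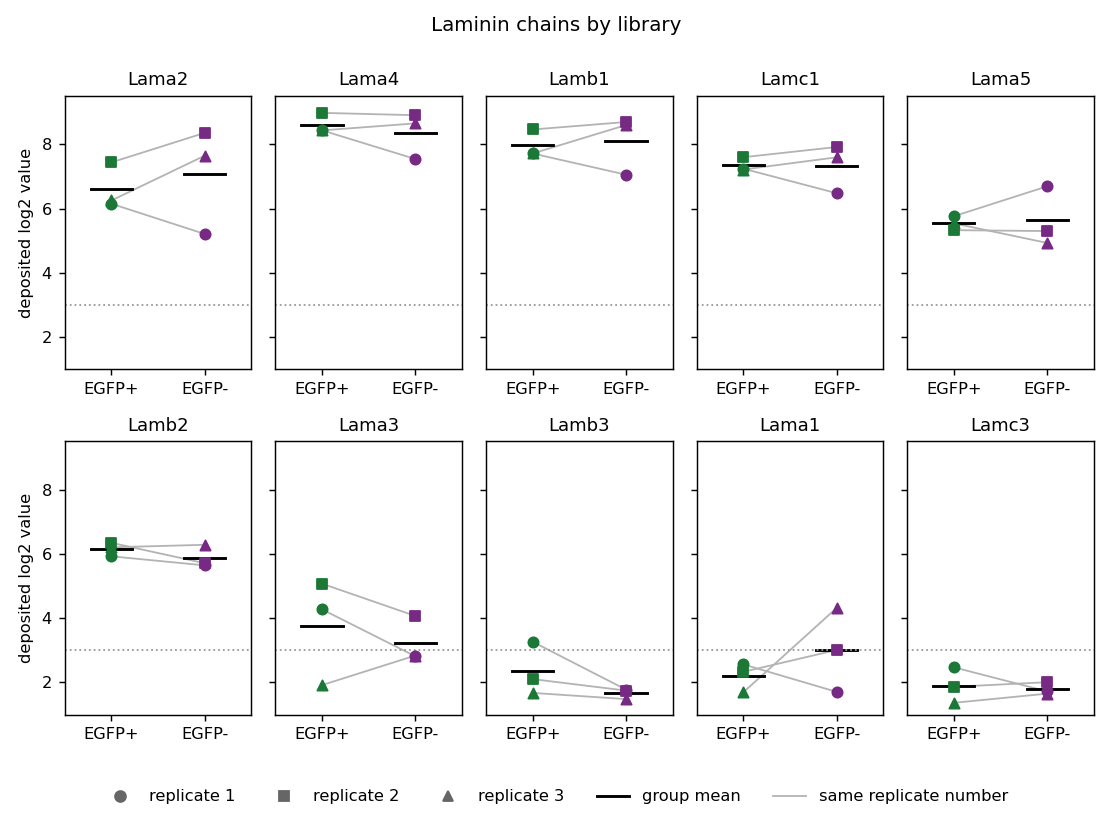
Deposited log2 values (vertical axis) of 10 laminin chains in the EGFP-positive (green) and EGFP-negative (purple) libraries, with grey lines joining the same replicate number, black bars for group means and a dotted line at 3. Lama2, Lama4, Lamb1 and Lamc1 are lowest in EGFP-negative replicate 1 (circle), and no chain separates the groups.

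The 4 genes that only share the symbol were not chains of a receptor. Itgb1bp1, which binds the tail of Itgb1, read 5.93, 5.99 and 5.54 against 5.77, 6.34 and 6.48. Itgb3bp, a centromere protein, ranged from 2.64 to 3.72, Itgbl1, a secreted protein with integrin-like repeats, from 1.68 to 3.21, and the muscle protein Itgb1bp2 from 1.21 to 1.62. All 4 overlapped between the groups.

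Proteins that switch integrins on and tie them to actin were represented by 20 of 22 listed genes, of which 2 were lower and 0 higher without overlap (6.04% and 3.07% of all genes, also for the lists that follow) and 0 passed the test. Fermt3, the kindlin of blood cells, read 6.20, 2.35 and 2.17 against 7.86, 8.07 and 8.002. As for Itgb2, the groups did not overlap and the pair of replicate 1 was the closest. Fermt2, the kindlin of other tissues and named for contrast after its values were seen, read 8.40, 9.08 and 9.87 against 8.43, 8.95 and 9.69 and overlapped. The other lower gene, Rap1b, a small GTPase named after its values were seen, read 9.56, 9.81 and 9.53 against 9.81, 10.15 and 9.98. Parvg, the parvin of leukocytes, had the lowest difference after Fermt3 and read 1.63, 1.40 and 1.32 against 1.59, 1.85 and 3.01. At the other end, the tensin Tns1 read 7.26, 7.22 and 8.37 against 6.48, 6.80 and 7.89, and vinculin (Vcl) read 9.14, 9.46 and 10.31 against 8.86, 8.96 and 10.14.

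Basement membrane partners and laminin receptors outside the integrins were measured for 15 genes, of which 0 were lower and 2 higher without overlap and 0 passed the test. Agrn, a proteoglycan that binds laminin, read 8.04, 7.85 and 9.03 against 7.01, 7.49 and 7.37. Dag1, the dystroglycan receptor for laminin and Agrn, named after its values were seen, read 9.32, 8.93 and 9.51 against 8.88, 8.67 and 8.48. Bcam, a receptor for Lama5-containing laminins, read 6.44, 4.50 and 2.59 against 3.23, 2.08 and 3.15, and was lower in the EGFP-positive library of replicate 3. The lowest differences were those of Sgca, a muscle sarcoglycan, which stayed between 1.09 and 2.28, and of Col4a2, a collagen chain, at 9.30, 8.99 and 9.24 against 9.06, 9.05 and 9.54. The list had a median difference of 0.23.

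Ligands of matrix-binding integrins were measured for 12 of 16 listed symbols, of which 0 were lower and 1 higher without overlap and 0 passed the test. Edil3, a secreted ligand of Itgav receptors, read 6.06, 6.28 and 8.33 against 3.04, 6.06 and 4.95, so that EGFP-positive replicate 1 matched EGFP-negative replicate 2 to within 0.01. Vtn, vitronectin, read 4.21, 3.27 and 5.79 against 2.10, 3.72 and 4.29. Fn1, fibronectin, and Mfge8 had the lowest differences, at 10.65, 10.84 and 10.69 against 10.43, 11.23 and 11.19 for Fn1 and a range of 7.97 to 8.27 for Mfge8. In this list 9 of 12 genes were lowest in EGFP-negative replicate 1.

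Ligands of leukocyte integrins were measured for 14 of 15 genes, of which 1 was lower and 0 higher without overlap and 0 passed the test. The 1 gene, Icam5, stayed near background. Vcam1, the ligand of Itga4, read 6.55, 7.13 and 8.15 against 5.61, 7.47 and 7.27, and Cdh1, the epithelial ligand of Itgae with Itgb7, read 8.48, 7.15 and 5.25 against 7.11, 6.77 and 6.06. Icam2, an endothelial ligand of Itgal with Itgb2, read 5.65, 6.27 and 4.03 against 6.20, 6.95 and 6.08. Jam2, an endothelial junction protein, read 5.39, 6.80 and 6.12 against 6.61, 8.16 and 7.58, lower in each pair by log2 differences of -1.22, -1.36 and -1.46. In all, 8 of the 14 were lower in all 3 pairs and 0 higher, where 16.2% and 11.3% of all genes were. However, 6 of the 14 were near background in all 6 libraries, and most of those 6 were among the 8. Endothelial markers averaged 5.62, 6.82 and 4.75 against 6.01, 6.56 and 6.41, with 0 of 8 separated and 3 lower in all 3 pairs. The list median was -0.17, beside -0.02 over all genes, and it rested on genes near background.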

How the data were processed

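Arrays of 6 libraries were compared, 3 labelled EGFP-positive and 3 EGFP-negative. The authors deposited log2 expression values for each probe set. The submitters' processing notes name RMA; its version and settings are not given in the sources used here, and the log2 base was taken from the values. Upper quartiles ranged from 4.08 in EGFP-negative replicate 1 to 4.86, so the deposited arrays do not share 1 distribution, as full quantile normalization would give. No normalization was added. Of 45101 probe sets, 34945 had 1 gene symbol in the platform annotation, 932 had several, 9160 had none and 64 were controls. Each gene was represented by its probe set with the highest mean, which left 18193 genes. Several probe sets existed for 22 of the 39 members, and for 14 of the 22 not all differed in the same direction.

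The group comparison used lmFit and eBayes of limma 3.58.1 (R 4.3.3), two-sided, with Benjamini-Hochberg adjustment over all genes, and was tested on simulated data. The simulated noise had the same spread for every gene and no pairing of libraries. That check therefore does not show what the test could detect at the spread of these data. List means are descriptions with no test. The p-values measure the spread among libraries that each pool several mice. The number of arrays limits the precision. Replicate numbers were taken as pairs because same-numbered libraries correlated over 0.1 in their deviations, which the labels do not state. The members and lists were chosen with earlier results of these data known. All members may be named, and of each partner list those with the 2 highest and 2 lowest differences. Some listed genes were not analysed here. Alternatives covered scaling, filtering, probe sets, variances, the replicate block and left-out libraries. The one without both EGFP-positive libraries of low Mapt was chosen after seeing the data. Promoters are from RefSeq. Python 3.11.15, pandas 2.3.3 and matplotlib 3.10.9 were used.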

Additional observations from a re-analysis of the deposited data

How the results depend on the processing

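No member passed the test under any of the 17 alternatives, where the smallest limma adjusted p was 0.16, and with the replicate block the count was also 0. Of the 39 members, 18 kept the sign of their difference under every alternative in which they had a value and 21 did not. With arrays centred on ribosomal protein genes 8 members were higher without overlap, against 28% of all genes. The matrix-binding mean difference was then 0.52. Among genes above the median level, 1 of 22 members was lower without overlap, against 5.68% of those genes. The leukocyte mean, then Itgb2 alone, was -4.17. With values under 3 set to 3, 2 were lower, against 3.04% of all genes. The leukocyte mean over 4 genes was then -1.31, with Itgam, at the floor in all libraries, counted as 0. For the count of signs, genes at the floor in all libraries had no value in this setting. Leaving out 1 library, which can only keep or raise these counts, gave 6 to 13 lower and 2 to 8 higher. Over all genes the shares were then 9.14% to 15.1% lower and 6.34% to 7.37% higher. Without EGFP-positive replicates 1 and 2 there were 14 lower and 6 higher, against 29.2% and 23.2% of all genes. Mean differences were then 0.48 for matrix-binding integrins and -0.41 for laminins, and the Itga4 difference turned to 0.19. Apart from the settings whose construction removes genes or libraries, the cause was not tested. Signal near background limits Itgal, Itgam, Itgax, Itgae, Itgb7 and, in 2 of 3 EGFP-positive libraries, Itgb2.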

Other observations

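Probe sets of 1 gene did not always give the same picture. The 5 Itga4 probe sets gave log2 differences from -1.36 to 0.32, and the second brightest of them read 2.26, 1.61 and 3.70 in the EGFP-positive libraries against 2.26, 1.91 and 2.45, so that its highest value lay in EGFP-positive replicate 3. The 4 Itgb5 probe sets ran from -0.38 to -0.00. In Itga6 the brighter probe set overlapped between the groups and the dimmer one, with a log2 difference of 0.80, did not.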
